A study of Homo sapiens with 4 samples.

Results

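A group of 10 genes encoding secreted factors that act on blood vessels and the extracellular matrix were followed through the deposited files: VEGFA, VEGFB, VEGFC, EDN1, ADM, THBS1, CTGF, CYR61, ANGPTL4 and SEMA3B. They were picked out by symbol, 10 of the 23287 symbols in the transcript tables, and the rule itself used no measured value. The choice was nevertheless made with earlier results of these data known, and the study discusses VEGFA, THBS1 and EDN1 as progestin-regulated. T47D is an established human luminal breast cancer cell line that carries progesterone receptor (PR). All cells were held in charcoal-stripped serum, which is low in steroid, before treatment, for a longer time in the ChIP assays than for RNA isolation. The RNA comprised 1 library from cells given the synthetic progestin R5020 at 10 nM for 3 h and 1 library from cells given the ethanol vehicle (EtOH) for 3 h. PR binding sites came from 1 chromatin immunoprecipitation (ChIP) library of cells given 10 nM R5020 for 1 h, and the matching input DNA was left aside. There was 1 library for each condition, so no difference below has a replicate check, and no test was made.

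Vascular endothelial growth factors (VEGFs) are dimeric ligands of receptor tyrosine kinases on endothelial cells and start vessel sprouting, while endothelin and adrenomedullin are peptides that set vessel tone through G protein-coupled receptors. Matricellular proteins such as thrombospondin 1 and the CCN proteins are secreted into the matrix and change how cells attach and respond to growth factors rather than building the matrix. Breast cancer cells release many of these factors, and progestins are known to change the release of VEGF from some breast cancer lines.

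The values were FPKM, read fragments scaled to transcript length and library size, which allow levels of different genes to be compared per length, and they were summed over the transcripts of a gene. A gene was retained if it reached an FPKM of 1 in at least 1 library, and a change was the log2 ratio of R5020 to EtOH after adding 1 to each FPKM, a scale that understates the change of low genes. A gene was called higher or lower past 1.5-fold on that scale, a log2 of 0.58. The coverage column corresponded to about 35151500 reads in EtOH and 36203600 reads in R5020, at 50 nt a read. These totals are not the library sizes. For each library the study reports more unique paired-end reads, and more for EtOH than for R5020. The median log2 ratio of genes at an FPKM of 1 or more in both libraries was 0.01. As a check of the labelled cell type, 9 of 9 luminal epithelial marker genes reached an FPKM of 1, although KRT8 and KRT18 were listed at 0 in EtOH, where all of their transcripts had the status of a failed estimate. Of 8 endothelial markers 0 reached 1 and 4 were at 0 in both libraries, with a summed FPKM of 0.465 in EtOH and 0.563 in R5020. Leukocyte markers summed to 1.15 and 1.25, and fibroblast and pericyte markers to 9.88 and 6.47, with COL1A1 the highest at 5.12 and 3.31. The known progestin target FKBP5, a co-chaperone of steroid receptors, was at 15.9 in EtOH and 86.6 in R5020, and TSC22D3 at 3.52 and 18.7. PGR, which encodes PR, was at 23.7 and 15.3, and ZBTB16 was listed at 0 in EtOH and 1.63 in R5020.

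Of the 10 factors, 8 were retained, 3 of these were higher in R5020 (CYR61, THBS1 and VEGFA), 4 were lower (EDN1, ANGPTL4, VEGFB and SEMA3B) and 1 was within 1.5-fold (ADM). Over all 23287 genes 11018 were retained, and of these 7.67% were higher and 4.14% were lower by the same rule. Because the 10 were chosen with results of these data known, their counts are not those of an unselected set. Read by mean level, 12.7% of retained genes with a mean FPKM under 2 passed 1.5-fold in either direction, as did 10.5% of those from 2 to 10 and 13.4% of those from 10 to 100. ANGPTL4 and SEMA3B fell in the lowest of these classes, VEGFA and ADM in the middle one, and EDN1, THBS1, CYR61 and VEGFB in the highest. The levels in the EtOH library ran from 76.8 for EDN1 down to 0.0107 for CTGF, and in the R5020 library THBS1 at 50.7 and CYR61 at 47.6 stood above EDN1 at 34.5. In a culture of cells, less RNA per cell and fewer cells that make a transcript cannot be told apart.

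**Figure D1:**
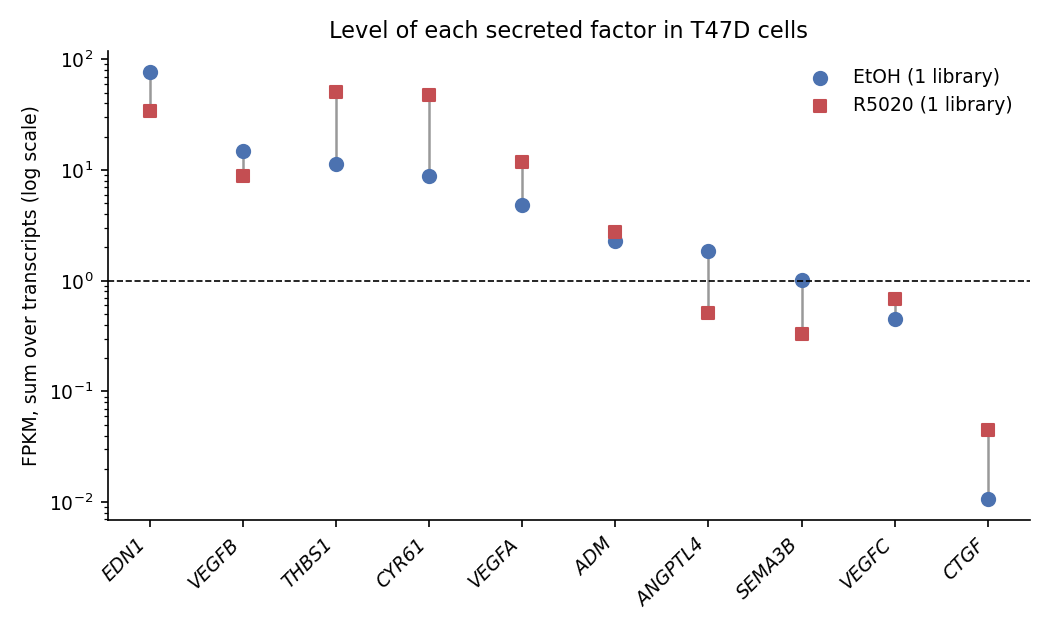
Summed FPKM of the 10 factors (log scale) in the EtOH library (circles) and the R5020 library (squares), ordered by level in EtOH, with the dashed line at an FPKM of 1. EDN1 leads in EtOH at 76.8, while THBS1 at 50.7 and CYR61 at 47.6 lead in R5020, and VEGFC and CTGF lie under 1 in both libraries.

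VEGFA, the main growth factor for vessel sprouting, had an FPKM of 4.79 in the vehicle library and 11.7 with progestin, giving a log2 change of 1.13 and a plain ratio of 2.45. It moved from rank 5754 of the 23287 genes to rank 2761, and 299 retained genes had a larger log2 change. About 1579 reads lay behind the EtOH value and 3773 behind the R5020 value. The related ligand VEGFB, which binds a single VEGF receptor type and is known more for effects on tissue metabolism than on sprouting, went the other way, from 14.9 to 8.76, a log2 change of -0.70. In EtOH VEGFB was thus the higher of the pair and in R5020 VEGFA was. VEGFC, the ligand that drives growth of lymphatic vessels, was under 1 in both libraries, at 0.451 and 0.678 from about 90.5 and 127 reads, and the intervals deposited with its FPKM overlapped.

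EDN1 encodes endothelin 1, a vessel-constricting peptide cut from a longer precursor. It was the highest of the 10 in EtOH at 76.8, rank 256 of all genes, and was at 34.5 in R5020, rank 750. The log2 change was -1.13, an EtOH level 2.22 times that in R5020, and 117 retained genes had a lower value. Its difference of -42.3 FPKM was the largest in size among the 10 factors, ahead of the 39.3 by which THBS1 was higher and the 38.8 by which CYR61 was higher. ADM encodes adrenomedullin, a vessel-relaxing peptide, and its levels of 2.26 and 2.75 gave a log2 change of 0.20, within the limit, with intervals that overlapped (0.955 to 1.69 and 1.18 to 1.91). Both of its FPKM values lay above their own interval.

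Among the matricellular genes, CYR61 (CCN1 in current nomenclature), an integrin-binding matrix protein, was at 8.84 with vehicle and 47.6 with progestin, a plain ratio of 5.38 and a log2 change of 2.30, with 63 retained genes above it. THBS1, which encodes thrombospondin 1, a matrix glycoprotein that inhibits vessel growth, was at 11.3 and 50.7, a plain ratio of 4.47 and a log2 change of 2.07, with 79 above it. These were the only factors of the 10 among the 100 largest rises or falls of retained genes. The genes counted above them include KRT8 and KRT18, whose transcripts in EtOH had the status of a failed estimate. How many other failed estimates enter such ranks and the background shares was not counted. The values of CYR61 rested on about 1959 and 10090.4 reads and those of THBS1 on 6292 and 27157. CTGF (CCN2), the family relative of CYR61 that often moves with it in other settings, was at 0.0107 and 0.0449, from about 1.3 and 6.4 reads. It was not detectable at a level that could be compared at this depth.

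ANGPTL4, a secreted inhibitor of lipoprotein lipase that also acts on vessel walls, was at 1.85 in EtOH and 0.508 in R5020. The log2 change was -0.92, and the plain EtOH level was 3.63 times the R5020 level, on about 296.7 and 86.3 reads. SEMA3B, a secreted semaphorin that binds neuropilins and opposes VEGF signals, was at 1.02 and 0.328, an EtOH level 3.09 times that in R5020, on 292.7 and 87.9 reads. Its log2 change of -0.60 lay just past the limit, on a scale where the added 1 is about as large as its EtOH level. Both genes were retained only through the EtOH library, so by that filter they could pass only as genes high in EtOH.

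**Figure D2:**
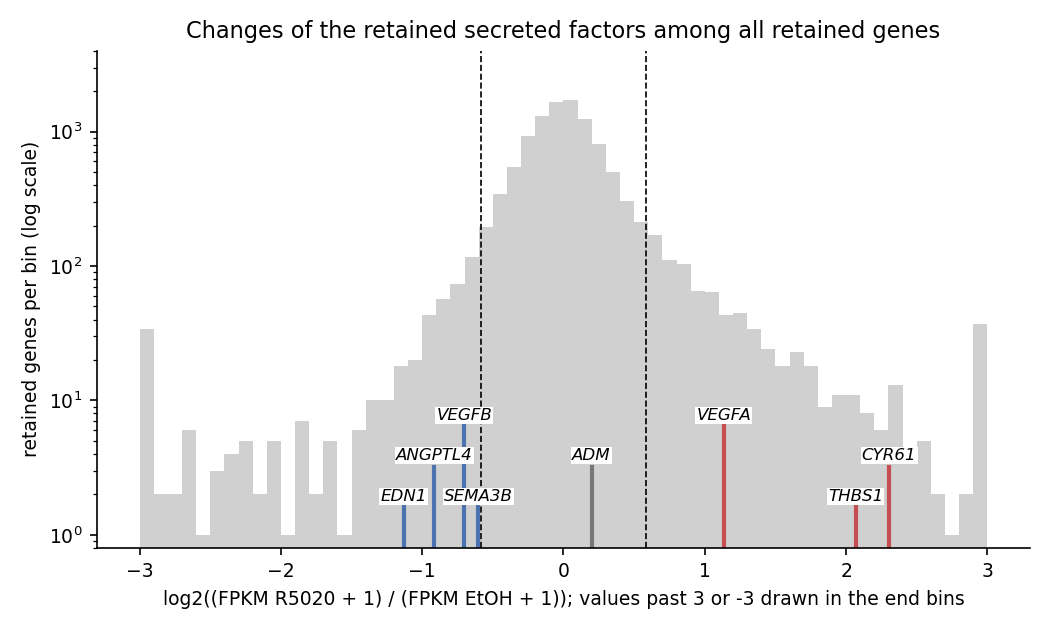
Number of retained genes (log scale) in bins of the log2 change, R5020 over EtOH, with the 8 retained factors marked in red (higher), blue (lower) or grey (within), and dashed lines at 1.5-fold. THBS1 at 2.07 and CYR61 at 2.30 lie in the far right tail, EDN1 at -1.13 is the lowest of the factors, and ADM at 0.20 lies in the bulk; the height of a mark has no meaning.

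The 10 genes were listed with 22 transcripts, of which 6 were at 0 in both libraries and 16 were above 0 in at least 1. At the transcript level 13 reached an FPKM of 1, of which 6 were higher and 5 were lower in R5020, against 11.3% and 8.34% of all retained transcripts. The deposited FPKM intervals of the 2 libraries did not overlap for 11 of the 16 and overlapped for 5. The same share over all transcripts was not taken, so these counts cannot be read as particular to the factors. These intervals express the uncertainty of assigning reads within a library and hold no variation between cultures. For 3 of the 16, the transcripts of ADM, THBS1 and CYR61, the FPKM lay outside its own interval in 1 or both libraries. Counted within each library alone, this held for 35.4% of all transcripts with an FPKM above 1, which is a different base from the 16.

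VEGFA had 9 transcripts, 5 of them at 0 in both libraries. The alternative exons of this gene decide whether the protein carries the basic sequence that holds it on heparan sulphate, so the shorter forms diffuse more freely than the longer ones. The longest one expressed, NM_003376 at 3610 nt, was at 0.779 in EtOH and 2.32 in R5020. NM_001025368, shorter by 72 nt, was at 1.5 and 3.45. NM_001171628, shorter again by 132 nt, was the most abundant in both libraries at 2.51 and 4.37. NM_001171630, shorter by a further 30 nt, was listed at 0 in EtOH and was at 1.57 in R5020. Each of these steps in length equals that of an exon annotated for VEGFA. For all 4 the interval in R5020 lay above the interval in EtOH, so the higher sum was spread over long and short forms. The share of NM_001171628 in the VEGFA sum was 52.4% in EtOH and 37.3% in R5020, that of NM_001025368 was 31.3% and 29.4%, and that of NM_003376 was 16.3% and 19.8%. These transcripts share most of their sequence, so how reads were divided among them is an estimate.

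The 2 transcripts of EDN1 differ by 3 nt in length and were listed at nearly equal levels in EtOH, 37.9 for NM_001955 and 38.9 for NM_001168319, and at 15.4 and 19.1 in R5020. Both were lower. Of the VEGFB transcripts, NM_003377 was at 11.5 and 6.39, whereas NM_001243733 was at 3.39 and 2.37 with overlapping intervals and within 1.5-fold. The major VEGFB form held 77.2% of the sum in EtOH and 72.9% in R5020. For ANGPTL4, NM_001039667 was at 1.18 and 0.168 with intervals that did not overlap, while NM_139314 was at 0.664 and 0.340 with intervals that did. By FPKM alone its more abundant form was NM_001039667 in EtOH and NM_139314 in R5020. The first had 185.7 and 27.4 reads and the second 110.9 and 58.9. Within each library the intervals of these forms overlapped, so their order was not resolved. They were 0.833 to 1.54 and 0.405 to 0.933 in EtOH, and 0.0223 to 0.335 and 0.166 to 0.515 in R5020. SEMA3B was read entirely through NM_001005914, since NM_004636 was at 0 in both libraries. The remaining genes, VEGFC, ADM, THBS1, CTGF and CYR61, had 1 transcript each.

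**Figure D3:**
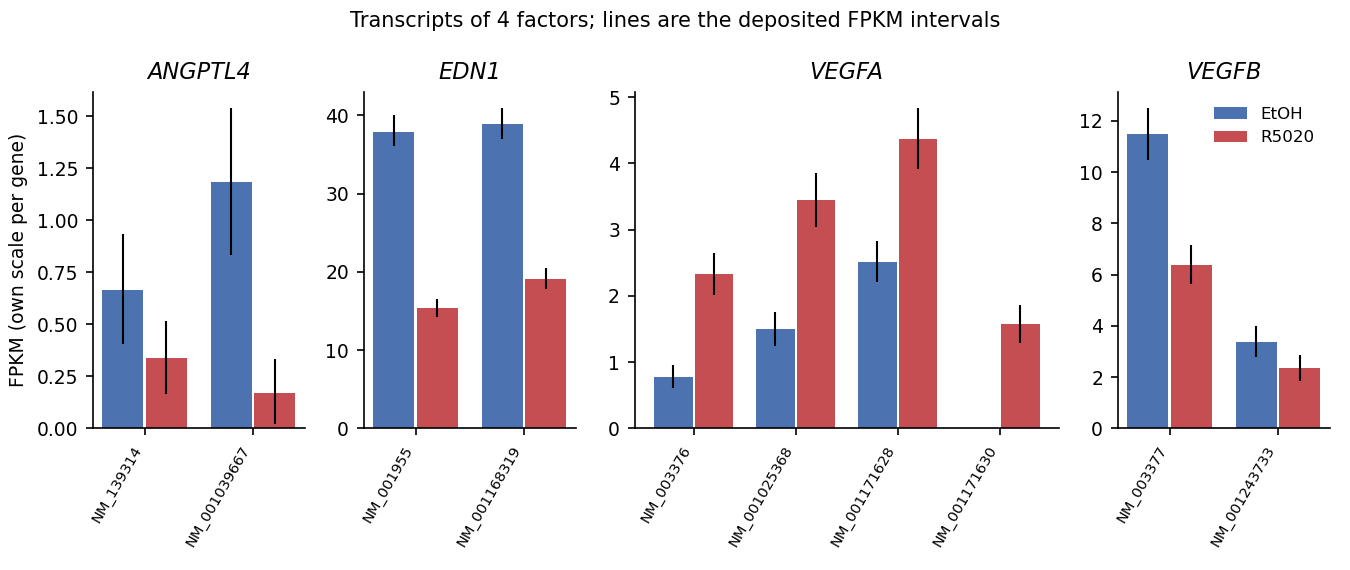
FPKM of the transcripts above 0 in at least 1 library for the 4 factors with more than 1 such transcript, in EtOH (blue) and R5020 (red); each panel has its own scale, transcripts run from the longest to the shortest, and vertical lines are the deposited FPKM intervals. All 4 VEGFA forms are higher in R5020, with NM_001171630 listed at 0 in EtOH, both EDN1 forms are lower, and the intervals overlap for NM_001243733 of VEGFB and NM_139314 of ANGPTL4.

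PR is a ligand-activated transcription factor that binds DNA as a dimer at inverted repeats of a short half-site shared with the glucocorticoid and androgen receptors. The site list held 11181 sites with scores (10 times the negative log10 of the peak caller's p) from 50 to 1965.17 and a median of 74.5. Within 50 kb of a locus, 5 of the 10 factors had at least 1 site: VEGFA with 1, THBS1 with 1, ANGPTL4 with 2, SEMA3B with 2 and VEGFB with 11. All 5 were among the 8 retained factors, against 52.7% of all retained genes. By direction, 2 of the 3 higher factors had a site, against 61.4% of all higher genes, and 3 of the 4 lower factors did, against 61.0% of all lower genes. With 8 genes these shares lie near the background. The 17 sites had scores from 50.45 to 116.27 with a median of 69.5, below the median of the whole list. The ChIP cells were treated for 1 h and the RNA cells for 3 h, and the ChIP cells had been longer in stripped serum. A site near a gene does not assign it to that gene.

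At 3 of the 17 sites the factor was the nearest gene symbol, and for the other 14 another gene lay nearer. The 3 were the VEGFA site, the THBS1 site and the site at the ANGPTL4 start, and 200 bases of each are given because they are the sites that no other listed gene was closer to. Letters are the plus strand of GRCh37 (hg19), on which all 3 genes are read, and capitals mark an exact half-site (AGAACA, or TGTTCT on the other strand).
VEGFA chr6:43732723-43732922: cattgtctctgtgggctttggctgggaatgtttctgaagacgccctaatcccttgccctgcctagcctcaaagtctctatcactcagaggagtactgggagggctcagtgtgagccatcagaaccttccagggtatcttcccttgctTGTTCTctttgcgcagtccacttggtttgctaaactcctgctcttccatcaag
THBS1 chr15:39874276-39874475: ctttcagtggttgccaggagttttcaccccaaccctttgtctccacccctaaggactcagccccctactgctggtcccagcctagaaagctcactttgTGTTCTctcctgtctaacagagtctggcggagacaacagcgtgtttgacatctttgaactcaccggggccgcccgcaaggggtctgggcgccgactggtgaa
ANGPTL4 chr19:8428787-8428986: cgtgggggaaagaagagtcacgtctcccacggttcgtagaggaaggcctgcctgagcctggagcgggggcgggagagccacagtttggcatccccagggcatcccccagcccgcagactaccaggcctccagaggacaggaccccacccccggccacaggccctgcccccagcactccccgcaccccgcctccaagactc

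The VEGFA site (chr6:43732500-43732922, score 79.66, higher than 59.1% of sites) was intergenic and ended 5.02 kb upstream of the start site at position 43737946. No other gene symbol lay within 50 kb of the VEGFA locus. Its half-site began at base -5076 relative to the start. The THBS1 site (chr15:39873995-39874475, score 111.37, higher than 89.4% of sites) lay inside the gene, began 715 bases after its start site at 39873280 and had its midpoint in an intron. Its half-site began 1094 bases after the start, and the printed window runs from that intron into a coding exon. The ANGPTL4 site (chr19:8428668-8429040, score 68.41, higher than 37.5% of sites) overlapped the start site at 8429011 listed for the gene. GENCODE places its midpoint in an intron of longer ANGPTL4 transcripts. The printed window covers bases -224 to -25 relative to the start and held no exact half-site. THBS1 was thus higher in R5020 with an internal site, VEGFA was higher with a distal upstream site, and ANGPTL4 was lower with a site on its start.

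The VEGFB locus (chr11:64002056-64006736) lies in a gene-dense stretch with 10 other symbols within 50 kb, and its 11 sites lay at or in several of them. The nearest, with a score of 86.11, was 2.39 kb beyond the end of the gene in FKBP2. The nearest upstream, with a score of 83.61, was 7.16 kb away in NUDT22, and 5 sites lay in PLCB3, at scores from 50.45 to 71.6. The highest of the 11, at 116.27, was 48.9 kb upstream. As many sites or more within 50 kb were found for 168 retained genes, 1.52% of all. The density over chromosome 11 was 7.69 sites per Mb, against 3.68 over chromosomes 1 to 22 and X, and the part of that density in the count was not tested. The sites of SEMA3B both lay in introns of GNAI2, 26.8 kb (score 59.25) and 29.9 kb (score 90.17) from the SEMA3B locus. The other ANGPTL4 site (score 60.8) was in an intron of KANK3, 34.1 kb away. At the 50 kb limit, the outermost VEGFB site inside was 49.4 kb away and the next outside was 52.7 kb away.

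Of the factors with no site within 50 kb, CYR61, the one with the largest log2 change, had its nearest site 116 kb away, with a score of 106.13. For ADM the nearest was at 485 kb. For EDN1, lower in R5020, the nearest was at 1277 kb, for CTGF at 2002 kb and for VEGFC at 2868 kb. Chromosomes 6 and 4, which carry EDN1, CTGF and VEGFC, had 1.58 and 1.13 sites per Mb. Chromosomes 11 and 1, which carry ADM and CYR61, had 7.69 and 3.49. VEGFA, with a site 5.02 kb away, is also on chromosome 6. The part of chromosome density in these distances was not tested.

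**Figure D4:**
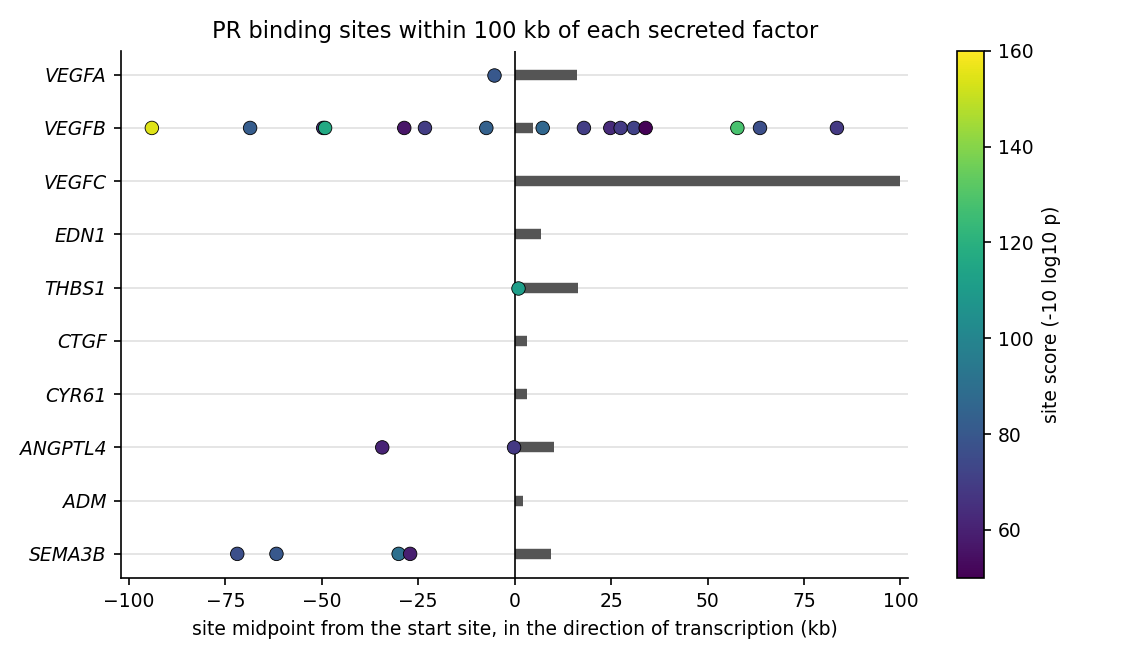
PR binding sites within 100 kb of each factor, placed by the distance of the site midpoint from the start site in the direction of transcription (kb) and coloured by score; dark bars are the loci, and the VEGFC bar is drawn to the axis limit. VEGFB has sites on both sides, VEGFA has 1 upstream, THBS1 has 1 inside the gene, ANGPTL4 has 1 on its start, and EDN1, ADM, CTGF, CYR61 and VEGFC have none.

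The palindromic consensus GNACANNNTGTNC, searched over whole sites and the same on both strands, was found in 0 of the 17 sites and in 2.40% of the 11178 sites on assembled chromosomes. Windows of equal length 5 kb to the left and right of those sites held it in 0.787% and 0.823%. The exact half-site, which is either end of the longer element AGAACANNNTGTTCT, was in 3 of the 17 (VEGFA, THBS1 and 1 of the SEMA3B sites), 17.6%, against 25.2% of all sites and 27.0% and 27.4% of the flanking windows. The count of 0 says only that these letters are not in these windows.

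Of 29 receptor and co-receptor genes for these factors, 14 were retained and 15 stayed under an FPKM of 1 in both libraries, 3 of these listed at 0 in both. Over all 23287 genes, 11018 were retained and 12269 were not, so the numbers retained and not retained lie near the background. The receptors of VEGF (FLT1, KDR and FLT4), the neuropilins NRP1 and NRP2, the endothelin receptors EDNRA and EDNRB and the adrenomedullin receptor CALCRL were among these 15, with FLT4 the highest of those named at 0.556 and 0.670 and FLT1 at 0.297 and 0.422. The retained ones were mostly integrins, plexins and syndecans, which serve THBS1, CYR61 and the semaphorins. Of these 1 was higher, ITGAV, the integrin alpha V chain that pairs at many CCN and thrombospondin contacts, at 10.7 and 17.2 (log2 0.64), and 0 were lower. Over all retained genes 7.67% were higher and 4.14% were lower, so with 14 genes these counts lie near the background. ITGB1 was at 52.6 and 54.8, CD47, a thrombospondin receptor, at 13.5 and 13.3, and SDC4 at 22.9 and 17.0 (log2 -0.41). The median log2 change of the 14 was 0.00, beside 0.01 over all retained genes.

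Few relatives of the factors reached an FPKM of 1 in either library, beside 11018 of all 23287 genes that did. Of 31 genes of the same families 3 were retained and 0 were called, namely SEMA3C at 36.8 and 27.1, THBS3 at 5.43 and 4.52 and SEMA3F at 3.82 and 2.36, and their median log2 change was -0.43. Of 15 other matricellular genes 2 were retained, LUM at 2.54 and 1.66 and FBLN5 at 1.29 and 0.808, neither past the limit. Of 16 enzymes that process or clear these proteins 6 were retained and, beside 7.67% of all retained genes, 1 was higher. This was ECE1, the endothelin-converting enzyme, at 4.72 and 7.62 with a log2 change of 0.59, just past the limit and under it after rescaling to a median of 0, while its substrate gene EDN1 was lower. PAM, the enzyme that amidates adrenomedullin, was at 6.95 and 8.31.

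The last 3 lists held regulators and known targets of pathways that control some of the 10 genes elsewhere. All 7 lists were chosen with earlier results of these data known, so their counts are not those of unselected sets. The hypoxia list, whose transcription factors act on VEGFA, ADM and ANGPTL4, had 24 of 30 genes retained, 8 higher and 0 lower, with a median log2 change of 0.37, against 7.67% higher, 4.14% lower and a median of 0.01 over all retained genes. Its 4 largest were PFKFB3, a regulator of glycolysis, at 6.57 and 53.1 (log2 2.84), NDRG1 at 5.34 and 25.2 (log2 2.05), HIF1A itself at 25.1 and 67.8 (log2 1.40) and P4HA2, a collagen prolyl hydroxylase, at 4.22 and 12.0 (log2 1.32). The lactate dehydrogenase gene LDHA was at 50.6 and 77.3 and the glucose transporter gene SLC2A1 at 2.09 and 4.45, but PGK1 at 25.1 and 26.2 and DDIT4 at 14.9 and 12.0 were within 1.5-fold. The 3 factors of this group did not share a direction, since VEGFA was higher, ADM was within and ANGPTL4 was lower.

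In the YAP/TEAD list, a transcription pathway of which CYR61 and CTGF are standard targets, 23 of 28 genes were retained, 3 were higher and 1 was lower, with a median of 0.12, beside the same 7.67% and 4.14% of all retained genes. With 23 genes these counts lie near the background. F3, the gene of tissue factor, was at 1.41 and 10.4 (log2 2.24), GADD45A, a stress-response gene, at 1.28 and 6.09 (log2 1.64) and SAV1, a scaffold of the upstream kinases, at 4.59 and 7.54 (log2 0.61). TGFB2, a growth factor of the TGF-beta family, was lower, at 2.52 and 0.896 (log2 -0.89), and was retained only through the EtOH library. The coactivators YAP1, at 28.1 and 34.3, and WWTR1, at 7.02 and 7.08, were within 1.5-fold, as were AMOTL2 at 6.94 and 5.12 and AJUBA at 11.9 and 8.42. CTGF, at 0.0107 and 0.0449, was too low to be compared with CYR61.

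In the PPAR list, nuclear receptors and their lipid metabolism targets to which ANGPTL4 belongs, 13 of 16 genes were retained, 3 were higher and 0 were lower, against 7.67% and 4.14% of all retained genes, and the median was -0.19. PDK4, a brake on glucose oxidation, was at 0.147 and 4.03 (log2 2.13) and was retained only through the R5020 library, and PLIN2, a lipid droplet coat gene, was at 2.69 and 6.63 (log2 1.05). ANGPTL4 was lower while these genes were higher, and CPT1A, at 22.6 and 18.7, was within 1.5-fold.

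**Figure D5:**
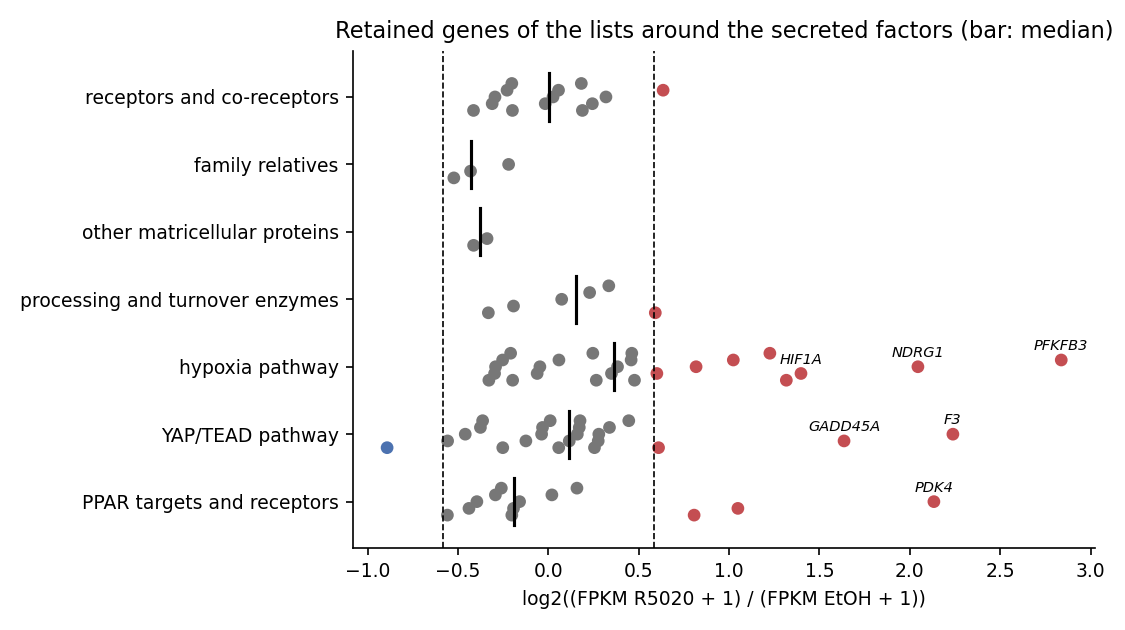
Log2 change, R5020 over EtOH, of the retained genes in 7 lists around the factors, with red points higher, blue points lower and grey points within 1.5-fold (dashed lines), and a bar at each median. The hypoxia list has 8 red points and a median of 0.37, whereas the receptor list has 1 and a median of 0.00; vertical offsets of points have no meaning.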

How the data were processed

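Per the labels and the study's methods, the authors aligned the reads with TopHat and Bowtie (1.1.2 in the submitters' processing notes) to hg19 and estimated RefSeq transcript abundance with Cufflinks as FPKM, deposited with an interval and a coverage (signal) column; whether strand was used in counting is not given in the sources used here. PR sites carried a deposited score, 10 times the negative log10 of the MACS p-value.

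FPKM were summed per symbol, and changes were taken with a pseudocount of 1, a minimum FPKM of 1 in 1 library or both and a 1.5-fold limit. Reads were estimated as coverage times length over 50. Site starts were shifted to 1-based positions, distances were measured to the span of a gene's transcripts, and sequence, strand and exons were read from GRCh37 with GENCODE annotation, whose chromosomes match hg19. Python 3.11.15, pandas 2.3.3 and pysam 0.24.0 were used, and the script that makes the calls was checked on simulated data. Depth sets the counting error of low genes, and 1 library a condition gives no other error.

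The 10 genes and 7 lists (164 genes) were chosen with earlier results of these data known. All 10 genes are named, with the genes of each list past 1.5-fold (at most 4 a direction and list) and receptors at an FPKM of 1 or more. Receptors under 1, and further list genes, were named after their values were seen, and so were the classes of mean FPKM chosen. Alternatives changed the pseudocount, scaling, filter, limit, transcript choice, site distance and site score. Values of some list genes are not reported here.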

Additional observations from a re-analysis of the deposited data

How the results depend on the processing

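No paired analysis was possible because there was 1 library per condition, and for the same reason no replicate could be left out. Of the 10 alternatives, 4 changed the levels that enter the ratio (rescaling, 1 transcript a gene, coverage and the interval midpoint). Under these the 7 genes called higher or lower had the same sign and stayed past the limit in 28 of 28 values. Little else was possible, since rescaling was by a factor of 1.008 and 1 transcript a gene left THBS1, CYR61 and SEMA3B unchanged. Coverage and the midpoint re-express the same reads, so the 28 values are no independent check. At 2-fold, 4 of the 10 genes, 4 transcripts and 10 list genes passed, against 7, 11 and 17 at 1.5-fold. VEGFB, ANGPTL4 and SEMA3B were lost. The share of all retained genes or transcripts past 2-fold was not taken, so the counts at 2-fold have no background to be read against. Requiring an FPKM of 1 in both libraries dropped ANGPTL4, SEMA3B, TGFB2 and PDK4. The log2 change of VEGFA ran from 0.61, for its most abundant transcript alone, to 1.29. Without the added 1, ANGPTL4 was at -1.86 and SEMA3B at -1.63. At a site score of at least 100, 2 sites near 2 genes (THBS1 and VEGFB) were left, and within 10 kb there were 5 sites. The share of all retained genes with a site under these settings was not taken, so these site counts have no background either. With a pseudocount of 0.1, LUM, FBLN5, SEMA3F, ARHGEF17 and RXRA passed the limit as lower, and ECE1 was lost on rescaling to a median of 0. The interval midpoint was added after seeing the data.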
